A study of Mus with 9 samples.

Results

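The BCL2 family is described here through 10 genes, found by their symbols in the deposited count table of 54532 genes, whose RNA levels were read in bone marrow cells of mice. They are 4 prosurvival genes (Bcl2, Bcl2l1, Bcl2l2 and Mcl1), 2 effectors of cell death (Bax and Bak1) and 4 BH3-only genes (Bid, Bcl2l11, Pmaip1 and Bbc3). All 10 were in the table, and all 10 were among the 15660 genes that passed the filter on low counts and were tested. The 9 libraries fall into 3 groups of 3, labelled Vec (numbers 1, 2 and 4), CCND2wt (2, 3 and 4) and CCND2mut (1, 2 and 3). Donor cells of all 3 groups came from fetal livers of embryonic day 12.5 with a conditional knock-in of AML1-ETO tagged with mCherry. AML1-ETO is the fusion of RUNX1 and RUNX1T1 found in acute myeloid leukaemia, and the labels describe the mouse as a preleukaemic model with a myeloproliferative phenotype. The cells were infected with the retroviral vector MSCV-IRES-EGFP, either empty (Vec), with wild-type CCND2 (CCND2wt) or with the Thr280Ala mutant of CCND2 (CCND2mut), which encodes cyclin D2. Cells positive for mCherry and GFP were given with supportive cells to lethally irradiated C57BL/6 mice. The labels give no age, no time of harvest and no promoter for the conditional allele. Nothing in them says that the marrow was sorted again, so that RNA of host and supportive cells can be included, and nothing says whether each library came from an animal of its own. The p-values therefore cover only the spread from library to library, part or all of which may be technical.

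Proteins of the BCL2 family control whether the outer membrane of the mitochondrion stays intact. BAX and BAK form pores in that membrane, through which cytochrome c escapes to start the caspase cascade. BCL2, BCL-XL (Bcl2l1), BCL-W (Bcl2l2) and MCL1 hold the effectors and the BH3-only proteins in check, while BID, BIM (Bcl2l11), NOXA (Pmaip1) and PUMA (Bbc3) bind the prosurvival proteins or activate the effectors. NOXA binds MCL1 above all, and BIM and PUMA bind every prosurvival member. Blood stem cells, neutrophil precursors and many myeloid leukaemias need MCL1, maturing red cells need BCL-XL, and mature lymphocytes need BCL2 and are culled by BIM. Much of the control of these proteins, such as the rapid turnover of MCL1 and the cleavage of BID, acts after transcription and is not measured by RNA.

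Total counts were 15043755 to 17593634 per library. Levels are given per 1000000 scaled counts of the library (CPM), where a group is summarised by its mean ± SD (n = 3 libraries), and differences as log2 fold changes with the standard error (SE) or 95% interval of the model. A gene is called where its adjusted p in edgeR was under 0.05 over all 15660 tested genes, and every adjusted p below is from that test. The targeted gene went against its labels. The Vec libraries had 76.2, 79.0 and 86.2 CPM of Ccnd2. Lower levels were found with the label CCND2wt (7.30, 9.29 and 11.1 CPM) and with the label CCND2mut (12.6, 58.2 and 51.1 CPM). Whether the transgene is counted at the mouse gene is not given in the sources used here. Directions below are directions between labelled libraries. The 3 libraries labelled CCND2wt lay close to one another, with a chi-square of counts of 6.9987 to 17.7 per gene, while pairs within Vec or within CCND2mut gave 53.3 to 148.

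Most members differed between the libraries labelled CCND2mut and those labelled Vec. There 5 of 10 were called higher (Bcl2, Bax, Bak1, Bid and Pmaip1) and 2 lower (Mcl1 and Bcl2l11), where 24.9% and 26.9% of all tested genes were called higher and lower. Against CCND2wt, 4 of 10 were higher in CCND2mut (Bax, Bak1, Bid and Pmaip1) and 0 lower in edgeR (0 also at an unadjusted p under 0.05, in DESeq2 and in limma-voom), with 23.2% and 23.8% of all tested genes called in these directions. Between CCND2wt and Vec, 1 member was higher (Bcl2) and 1 lower (Mcl1), with 9.71% and 9.05% of tested genes called higher and lower. The median log2 fold change over the members was 0.72 in CCND2mut against Vec, 0.43 in CCND2mut against CCND2wt and 0.03 in CCND2wt against Vec, beside medians of -0.03, 0.02 and -0.04 over all tested genes. Over 20 other settings, 5 or 6 members were called higher and 2 lower in CCND2mut against Vec, and 3 to 5 higher against CCND2wt. Those for CCND2wt against Vec ranged from 0 to 2 in each direction, and were 0 in both without CCND2wt 3, without CCND2wt 4, against a fold of 1.5 or with the 3 CCND2wt libraries summed to 1 sample. Without Vec 1 they were 1 higher and 2 lower, and 0 were lower without Vec 2, Vec 4 or CCND2wt 2. Without CCND2mut 3, which is in neither group but enters the filter, the scaling and the shared spread, 2 were higher. The comparisons with Vec share their control libraries, so that calls that recur in both are not independent. The same holds for the comparisons of CCND2mut with Vec and with CCND2wt, which share the CCND2mut libraries.

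**Figure D1:**
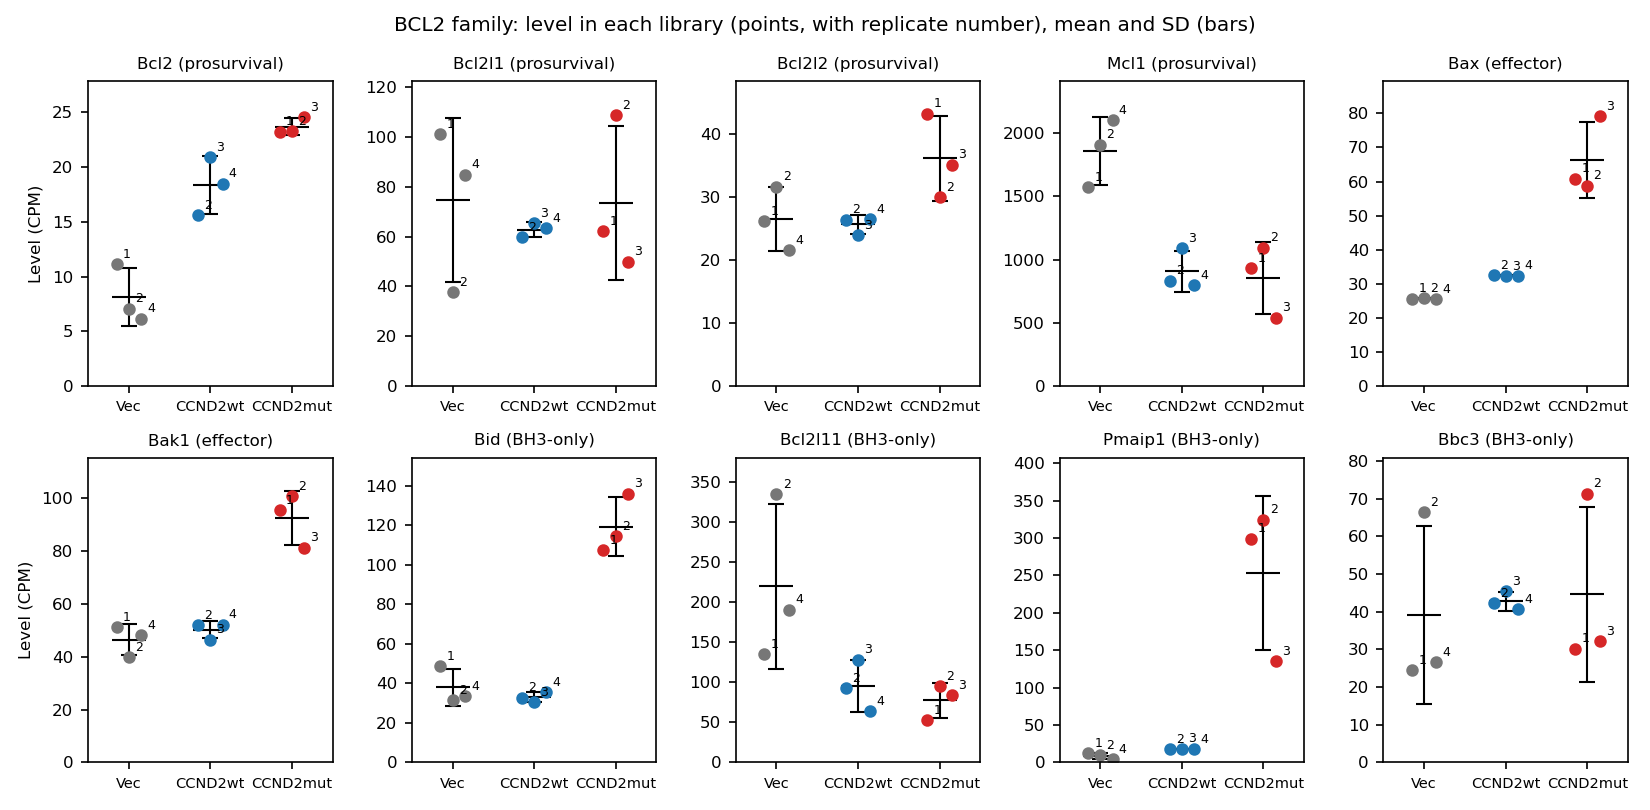
Level of each of the 10 BCL2 family genes (vertical axis, CPM, from 0) in each of the 9 libraries (points, marked with the replicate number) by labelled group, with the mean and SD of 3 libraries as bars. Pmaip1 lies between 135 and 324 CPM in CCND2mut and at 18.6 CPM or below elsewhere, and Mcl1 lies at 1572 CPM or above in Vec and at 1094 CPM or below elsewhere.

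The make-up of the marrow differed between the groups as well, as seen in lists of markers. Counts of called markers are to be read beside the shares of all tested genes called higher and lower. These were 24.9% and 26.9% in CCND2mut against Vec, and 9.71% and 9.05% in CCND2wt against Vec. All 4 primary granule markers rose in CCND2mut against Vec. Their summed level was 1357 to 1871 CPM in Vec, 2500.2 to 2684 in CCND2wt and 4858 to 10134 in CCND2mut. The sum hides unlike changes in CCND2wt against Vec, where Ctsg rose (1.85) and Prtn3 fell (-2.84), while Elane (-4.01, adjusted p = 0.058) and Mpo (0.09) were not called. Of 8 stem and progenitor markers 6 fell in CCND2mut against Vec, with sums of 2077 to 2733 CPM in Vec, 2587 to 2651 in CCND2wt and 504 to 1330 in CCND2mut. Of 8 erythroid markers 7 fell in CCND2mut against Vec. Their sum was 17014, 144 and 3836 CPM in Vec 1, 2 and 4, 1078 to 1295 in CCND2wt and 32.5 to 299 in CCND2mut. All 8 B cell markers fell in CCND2mut against Vec, from sums of 47.5 to 308 CPM to sums of 4.65 to 14.996, with 24.7 to 27.4 in CCND2wt. Maturing neutrophil markers summed to 482 to 14362 CPM in Vec, with the highest value in Vec 1, to 140.2 to 251 in CCND2wt and to 3113 to 18941 in CCND2mut, and 1 of 10 rose in CCND2mut against Vec. Mast cell and basophil markers summed to 7171 to 10039 CPM in Vec, 16449 to 17004 in CCND2wt and 1350 to 10578 in CCND2mut. Of its 7 tested markers 4 rose in CCND2wt and 2 rose in CCND2mut against Vec, and Mcpt1 had no read in CCND2wt. T and NK, monocyte, megakaryocyte and stromal marker sums reached at most 603 CPM in any library, and the megakaryocyte marker Gp1bb had no read in any library. In bulk RNA, fewer cells of a type and less RNA per cell cannot be told apart. The part of these shifts in the members' differences was not tested.

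Mcl1 (ENSMUSG00000038612; mm10 chromosome 3, 95658788 to 95663176) was the most abundant member in every library. It stood at 1572, 1909 and 2104 CPM in Vec 1, 2 and 4, at 832, 1090.0 and 795 CPM in CCND2wt 2, 3 and 4, and at 929.9, 1094 and 539 CPM in CCND2mut 1, 2 and 3. Every library of both CCND2 groups lay below every Vec library, as did 23.7% of tested genes in CCND2wt and 29.2% in CCND2mut. Mcl1 fell by 1.12 on the log2 scale in CCND2mut against Vec (SE 0.26, adjusted p = 0.00684), a fold of 2.18. It fell by 1.04 in CCND2wt against Vec (SE 0.26, adjusted p = 0.0272), a call that was lost when any 1 of 5 libraries was left out. Without Vec 2, Vec 4, CCND2wt 2, CCND2wt 3 or CCND2wt 4 its adjusted p in edgeR was 0.0711, 0.0778, 0.111, 0.0552 or 0.116, within a range of 0.00200 to 0.401 over all settings. CCND2mut and CCND2wt differed by -0.08 (interval -0.67 to 0.50, adjusted p = 0.81), which leaves room for a difference of up to 0.67 in log2.

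Bcl2 (ENSMUSG00000057329; chromosome 1, 106538178 to 106714274) moved the opposite way from a low level. It stood at 11.2, 7.06 and 6.15 CPM in Vec 1, 2 and 4, at 15.6, 20.9 and 18.5 CPM in CCND2wt, and at 23.3, 23.3 and 24.6 CPM in CCND2mut. The 3 groups did not overlap, and the order was Vec, CCND2wt, CCND2mut. Of tested genes, 24.6% had every CCND2wt library above every Vec library, and 27.4% had every CCND2mut library above every Vec library. Bcl2 rose by 1.54 in CCND2mut against Vec (SE 0.24, adjusted p = 0.000893) and by 1.17 in CCND2wt against Vec (SE 0.23, adjusted p = 0.0119). The second call was lost without CCND2wt 3 (adjusted p = 0.0538 in edgeR) or CCND2wt 4 (0.0507), within a range of 6.48e-05 to 0.253 over all settings. The difference between CCND2mut and CCND2wt was 0.37 (interval -0.15 to 0.89, adjusted p = 0.216). The CCND2mut libraries thus lay above all CCND2wt libraries, as 30.9% of tested genes did, without passing the test.

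Bcl2l1, which encodes BCL-XL (ENSMUSG00000007659; chromosome 2, 152780668 to 152831728), was called in no comparison. Its level was 101, 37.8 and 84.9 CPM in Vec 1, 2 and 4, 59.7, 65.4 and 63.4 CPM in CCND2wt, and 62.2, 109 and 49.9 CPM in CCND2mut. The groups overlapped in every comparison. Its coefficient of variation was 44.1% in Vec, 4.64% in CCND2wt and 42.1% in CCND2mut, where the median tested gene had 20.3%, 8.47% and 22.7%. The differences were -0.25 (interval -1.11 to 0.62), -0.02 (-0.89 to 0.85) and 0.23 (-0.64 to 1.10) for CCND2wt against Vec, CCND2mut against Vec and CCND2mut against CCND2wt. Bcl2l2, which encodes BCL-W (ENSMUSG00000089682; chromosome 14, 54883377 to 54888234), stood at 26.1, 31.6 and 21.5 CPM in Vec, 26.4, 24.0 and 26.5 CPM in CCND2wt and 43.2, 29.9 and 35.1 CPM in CCND2mut. The CCND2mut libraries were above all CCND2wt libraries, as for 30.9% of tested genes, but overlapped with Vec 2. The difference was 0.45 against Vec (interval 0.03 to 0.86, adjusted p = 0.0672) and 0.49 against CCND2wt (0.08 to 0.91, adjusted p = 0.0524). Bcl2l2 passed against Vec without Vec 2 (adjusted p = 0.0283 in edgeR) or CCND2mut 2 (0.0335), and against CCND2wt without Vec 2, Vec 4 or CCND2mut 2 (0.0407, 0.0445 and 0.0325), within ranges of 0.0283 to 0.749 and 0.0302 to 0.707 over all settings.

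Both effector genes were higher in the libraries labelled CCND2mut than in all others. Of tested genes, 27.4% had every CCND2mut library above every Vec library, and 30.9% had every CCND2mut library above every CCND2wt library. Bax (ENSMUSG00000003873; chromosome 7, 45461697 to 45466898) stood at 25.6, 25.8 and 25.4 CPM in the Vec libraries, at 32.5, 32.3 and 32.4 CPM in CCND2wt and at 60.9, 58.8 and 79.3 CPM in CCND2mut. The Vec and CCND2wt values hardly varied within a group, with a coefficient of variation of 0.826% and 0.394%. They rest on 380 to 425 reads per library in Vec and 570 to 615 in CCND2wt. At such counts the sampling of reads alone varies more, so this closeness is not read as a trait of Bax. Bax rose by 1.37 in CCND2mut against Vec (SE 0.13, adjusted p = 9.60e-05) and by 1.03 against CCND2wt (SE 0.13, adjusted p = 0.000342). Between CCND2wt and Vec its difference was 0.34 (interval 0.05 to 0.63, adjusted p = 0.0966), although every CCND2wt library lay above every Vec library, as for 24.6% of tested genes. Without CCND2mut 3, which is in neither group but enters the filter, the scaling and the shared spread, that difference passed (adjusted p = 0.0448 in edgeR, in a range of 0.0346 to 1 over all settings).

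Bak1 (ENSMUSG00000057789; chromosome 17, 27019810 to 27029009) stood at 51.2, 39.8 and 48.1 CPM in the Vec libraries, at 51.9, 46.4 and 52.1 CPM in CCND2wt and at 95.3, 101 and 81.2 CPM in CCND2mut. The lowest CCND2mut library was above the highest of the other 6. Such a separation was found for 27.4% of tested genes against Vec and for 30.9% against CCND2wt. Bak1 rose by 0.99 against Vec (SE 0.13, adjusted p = 0.000446) and by 0.88 against CCND2wt (SE 0.13, adjusted p = 0.000822), and its difference between CCND2wt and Vec was 0.11 (interval -0.19 to 0.41). The opposite-strand gene Ggnbp1 spans all 9200 bases of Bak1, and the strand setting of the counting is not given in the sources used here. Ggnbp1 stood at 7.31 ± 1.06 CPM in Vec, 4.11 ± 0.723 in CCND2wt and 9.43 ± 0.424 in CCND2mut, each far below Bak1.

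Pmaip1, which encodes NOXA (ENSMUSG00000024521; chromosome 18, 66458604 to 66465550), had the largest difference of the 10 genes. It stood at 12.3, 9.30 and 4.68 CPM in Vec 1, 2 and 4, at 17.4, 18.6 and 17.9 CPM in CCND2wt and at 299, 324 and 135 CPM in CCND2mut 1, 2 and 3. The groups did not overlap, and the lowest CCND2mut library was far above every library of the other groups. Every CCND2mut library lay above every Vec library for 27.4% of tested genes and above every CCND2wt library for 30.9%. Every CCND2wt library lay above every Vec library for 24.6%. Pmaip1 rose by 4.85 in CCND2mut against Vec (SE 0.45, adjusted p = 9.90e-05), a fold of 28.8, and 4.83% of tested genes had a larger change in either direction. It rose by 3.82 against CCND2wt (SE 0.42, adjusted p = 0.000229), a fold of 14.1. The difference between CCND2wt and Vec was 1.03 (interval 0.13 to 1.94, adjusted p = 0.101).

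Bid (ENSMUSG00000004446; chromosome 6, 120891930 to 120916853), whose protein is cut by caspase 8 to carry death receptor signals to the mitochondrion, stood at 48.6, 31.5 and 33.6 CPM in Vec. It stood at 32.7, 30.6 and 35.5 CPM in CCND2wt and at 107, 114 and 136 CPM in CCND2mut. Again each CCND2mut library was above each of the other 6, beside 27.4% of tested genes against Vec and 30.9% against CCND2wt. Bid rose by 1.65 against Vec (SE 0.18, adjusted p = 0.000181) and by 1.85 against CCND2wt (SE 0.18, adjusted p = 0.000113), while CCND2wt and Vec differed by -0.20 (interval -0.61 to 0.20). The 3′ ends of Bid and of the opposite-strand gene Bcl2l13, another BCL2 relative, share 913 bases, where reads of the 2 genes cannot be told apart if strand was not used. Bcl2l13 rose as well, from 70.9 ± 8.495 CPM in Vec to 143 ± 19.3 in CCND2mut.

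Bcl2l11, which encodes BIM (ENSMUSG00000027381; chromosome 2, 128126038 to 128162547), was the only one of the 4 BH3-only members that fell in CCND2mut against Vec. It stood at 135, 335 and 191 CPM in Vec 1, 2 and 4, at 93.1, 128 and 64.1 CPM in CCND2wt and at 52.8, 95.2 and 84.1 CPM in CCND2mut. Vec 2 was highest, and no library of either CCND2 group reached the lowest Vec library. The same held for 23.7% of tested genes in CCND2wt and for 29.2% in CCND2mut. Bcl2l11 fell by 1.51 in CCND2mut against Vec (SE 0.39, adjusted p = 0.012). Its difference in CCND2wt against Vec was -1.21 (interval -2.10 to -0.32, adjusted p = 0.0618), which passed without Vec 1 (adjusted p = 0.0353 in edgeR, in a range of 0.0132 to 0.467 over all settings). CCND2mut and CCND2wt overlapped and differed by -0.30 (interval -1.18 to 0.58).

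Bbc3, which encodes PUMA (ENSMUSG00000002083; chromosome 7, 16308393 to 16318205), had group means that lay close together and libraries that did not. It stood at 24.4, 66.5 and 26.7 CPM in Vec 1, 2 and 4, at 42.2, 45.5 and 40.6 CPM in CCND2wt and at 30.2, 71.4 and 32.2 CPM in CCND2mut 1, 2 and 3. Vec 2 and CCND2mut 2 were each more than 2-fold above the other libraries of their groups, and the groups overlapped in every comparison. Its coefficient of variation was 60.3% in Vec, 5.88% in CCND2wt and 52.0% in CCND2mut. The differences were 0.13 (interval -0.89 to 1.15), 0.19 (-0.83 to 1.21) and 0.06 (-0.96 to 1.08) for CCND2wt against Vec, CCND2mut against Vec and CCND2mut against CCND2wt. These intervals allow changes of about 2-fold either way.

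**Figure D2:**
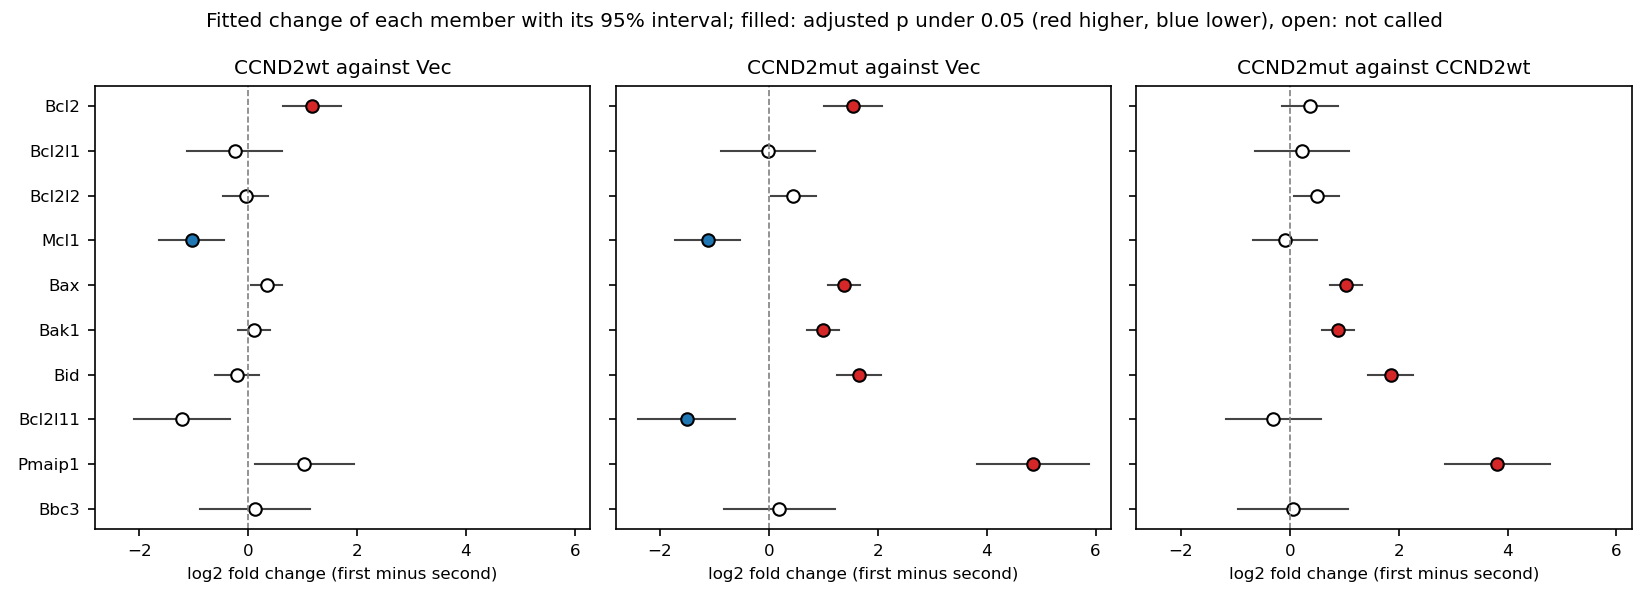
Fitted log2 fold change of each member (points) with its 95% interval (lines) in the 3 comparisons, on 1 shared axis. Filled points passed an adjusted p of 0.05 and open points did not; Bax, Bak1, Bid and Pmaip1 are called higher in both comparisons of CCND2mut, and Bcl2 and Mcl1 are called in opposite directions in both comparisons with Vec.

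Levels of different genes can be compared only per length, so counts were also divided by the gene lengths in the deposited table (CPM per kilobase of gene, RPKM). On this scale Mcl1 stood at 545 ± 78.6 RPKM in Vec, 265 ± 47.0 in CCND2wt and 249.97 ± 83.3 in CCND2mut, above every other member in each library. In Vec it was followed by Bcl2l11 (27.4 ± 12.8), Bak1 (19.3 ± 2.46), Bbc3 (18.5 ± 11.1), Bcl2l1 (16.3 ± 7.17) and Bax (16.3 ± 0.134), neighbours whose libraries overlapped. Below them came Bid (10.7 ± 2.63), Bcl2l2 (5.93 ± 1.13), Pmaip1 (3.31 ± 1.45) and Bcl2 (0.888 ± 0.292), each without overlap with the next. In CCND2wt, Mcl1 was followed by Bak1 (20.8 ± 1.34), Bax (20.6 ± 0.0810) and Bbc3 (20.1 ± 1.18), which overlapped, and then by Bcl2l1 (13.7 ± 0.636), Bcl2l11 (11.9 ± 4.004) and Bid (9.29 ± 0.685), each overlapping the next. Pmaip1 (6.79 ± 0.223), Bcl2l2 (5.74 ± 0.324) and Bcl2 (2.002 ± 0.290) were lowest and apart. In CCND2mut Pmaip1 (95.6 ± 38.8) moved to second place, apart from both neighbours. It was followed by Bax (42.1 ± 7.15), Bak1 (38.4 ± 4.17), Bid (33.6 ± 4.17), Bbc3 (21.0 ± 10.9), Bcl2l1 (16.1 ± 6.76), Bcl2l11 (9.64 ± 2.74) and Bcl2l2 (8.09 ± 1.504), each overlapping the next. Bcl2 remained the least abundant at 2.59 ± 0.0819 RPKM.

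The balance of the family within each library followed from these levels and is given as a description with no test. Mcl1 made up 80.2% to 85.1% of the summed RPKM of the 10 genes in Vec, 68.3% to 73.5% in CCND2wt and 41.7% to 50.6% in CCND2mut. Pmaip1 made up 0.245% to 0.811% in Vec, 1.62% to 1.99% in CCND2wt and 13.5% to 20.9% in CCND2mut. The summed prosurvival level was 13.0, 17.5 and 17.7 times the summed effector level in Vec 1, 2 and 4, 6.26, 8.57 and 6.03 times in CCND2wt, and 3.81, 4.46 and 2.13 times in CCND2mut. The groups did not overlap in this ratio. Without Mcl1 the same ratio was 0.489 to 0.775 in Vec, 0.489 to 0.551 in CCND2wt and 0.255 to 0.416 in CCND2mut. The ratio of Mcl1 to Pmaip1, whose proteins bind each other, was 98.9 to 348 in Vec, 34.4 to 45.4 in CCND2wt and 2.41 to 3.09 in CCND2mut. The ratio of Bcl2 to Bax was 0.0417 to 0.0749 in Vec, 0.0826 to 0.111 in CCND2wt and 0.0533 to 0.0682 in CCND2mut, and thus overlapped between Vec and CCND2mut. Among the BH3-only genes, Bcl2l11 took 36.0% to 49.97% of the summed level in Vec and 4.01% to 9.11% in CCND2mut, where Pmaip1 took 44.4% to 68.9%.

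**Figure D3:**
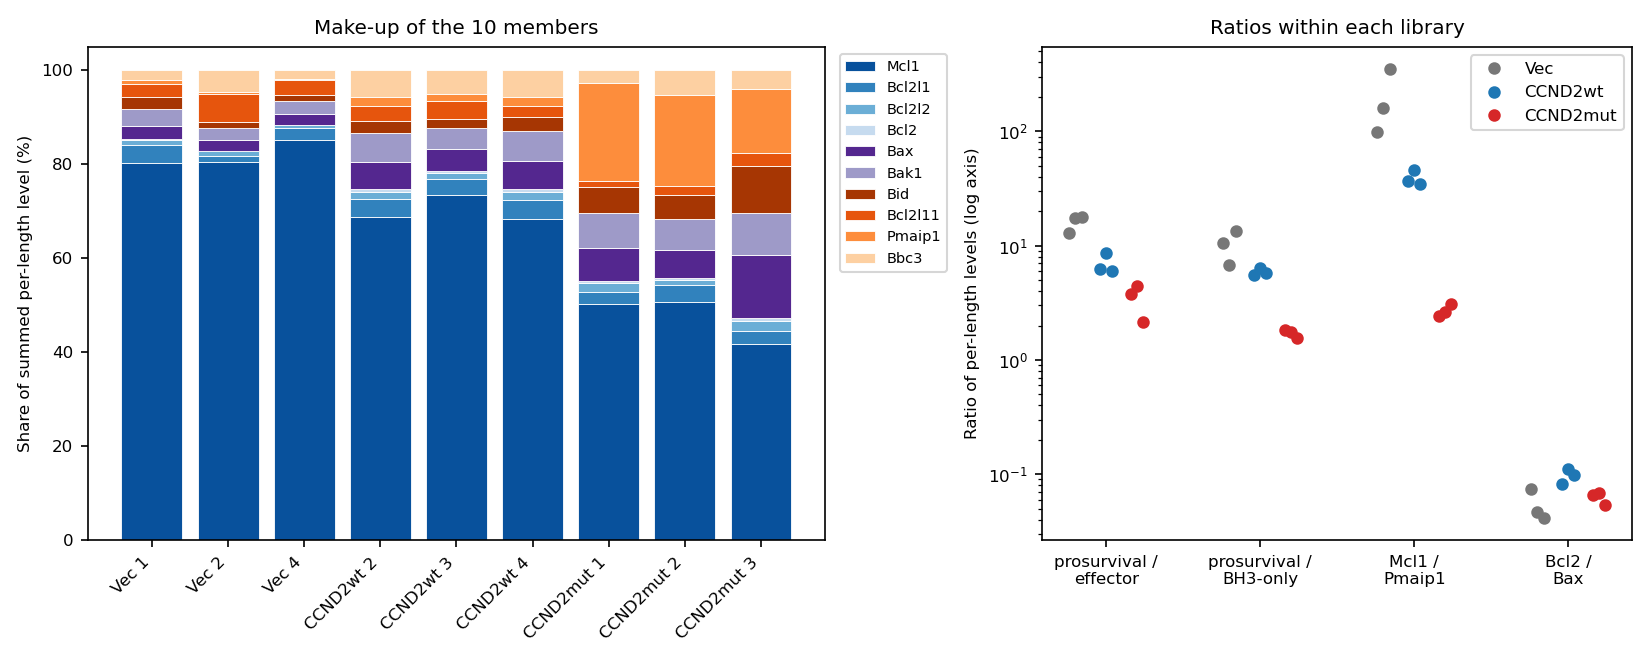
Left, share of each member in the summed per-length level (RPKM, %) of the 10 genes in each library, as stacked bars. Right, ratios of per-length levels within each library (points, log axis): the share of Mcl1 goes from 80.2% to 85.1% in Vec to 41.7% to 50.6% in CCND2mut, and the ratio of Mcl1 to Pmaip1 from 98.9 to 348 down to 2.41 to 3.09.

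Other genes of the cell death pathway were read from lists drawn up by role. The calls of each list are to be read beside the shares of all tested genes called higher and lower. These were 24.9% and 26.9% in CCND2mut against Vec and 23.2% and 23.8% in CCND2mut against CCND2wt. In CCND2wt against Vec they were 9.71% and 9.05%. Of 15 further BCL2 relatives only 8 were tested, since Bcl2a1a, Bcl2a1b, Bcl2a1d, Bcl2l10, Bik, Hrk and Bcl2l15 did not pass the filter on low counts, and Hrk had no read at all. In CCND2mut against Vec 3 rose and 2 fell, among them Bcl2l13, Bnip3 (10.1 ± 1.22 to 27.0 ± 10.2 CPM) and the BH3-only gene Bmf, which fell from 17.0 ± 5.0005 to 6.65 ± 1.54 CPM (log2 fold change -1.36, SE 0.27, adjusted p = 0.0035). Between CCND2wt and Vec 1 was called in edgeR. That gene was Bok, a relative of Bax and Bak1, which stood at 1.27, 1.70 and 1.54 CPM in the Vec libraries, at 18.9, 19.4 and 20.03 CPM in CCND2wt and at 1.09, 0.401 and 0.0664 CPM in CCND2mut (3.69 in CCND2wt against Vec, SE 0.58, adjusted p = 0.0048). In CCND2mut against CCND2wt 2 rose and 2 fell, with Bok at -5.19 (SE 0.64, adjusted p = 0.000336).

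The next list holds caspases, their partners and mitochondrial factors, not all of which act after the mitochondrial pore. Of 16 genes of the apoptosome, caspases and mitochondrial factors 7 rose and 2 fell in CCND2mut against Vec (median log2 fold change 0.35), beside 24.9% and 26.9% of all tested genes. In CCND2wt, 2 rose against Vec (0.21) and 0 fell in edgeR or limma-voom, with 1 lower in DESeq2 and at an unadjusted p under 0.05, and 6 rose and 2 fell in CCND2mut against CCND2wt (0.00315), beside 23.2% and 23.8% of all tested genes. Cycs, which encodes cytochrome c, went from 44.7 ± 2.01 CPM in Vec to 163 ± 32.8 in CCND2mut (1.87, SE 0.15, adjusted p = 4.69e-05) and stood at 45.8 ± 3.36 in CCND2wt. Vdac2, a channel of the outer mitochondrial membrane to which BAK binds, rose by 1.02 in CCND2mut against Vec (SE 0.11, adjusted p = 0.000145).

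The lists of caspase inhibitors and death receptors are small, and their calls in CCND2mut against Vec, 3 of 5 and 6 of 11 in either direction, are to be read beside the 24.9% and 26.9% of all tested genes called higher and lower there. Of the 5 genes of inhibitor of apoptosis proteins 1 rose and 2 fell in CCND2mut against Vec. Birc5 (survivin), which also acts in mitosis, rose from 26.6 ± 24.1 to 122 ± 19.8 CPM, and Birc2 (cIAP1) fell by 1.52 (SE 0.24, adjusted p = 0.00105). Against Vec, 2 fell in CCND2wt and 0 rose in edgeR, where DESeq2, limma-voom and an unadjusted p under 0.05 each gave 1 higher. Birc5 stood at 86.9 ± 3.29 CPM in CCND2wt, a log2 fold change of 1.71 from Vec with an edgeR adjusted p of 0.0562. In CCND2mut against CCND2wt 0 of 5 were called in edgeR, with list medians of -0.25 and 0.03 in the 2 comparisons. At an unadjusted p under 0.05 the latter comparison had 0 higher and 1 lower, as in DESeq2, and limma-voom called 0. Of 11 tested death receptor genes 3 rose and 3 fell in CCND2mut against Vec. The TNF receptor gene Tnfrsf1a rose from 63.0 ± 14.7 to 205 ± 55.6 CPM, the TRAIL receptor gene Tnfrsf10b fell from 37.3 ± 18.3 to 2.23 ± 0.555 CPM, and Casp8, whose protein cuts BID, fell from 121 ± 12.4 to 68.8 ± 7.57 CPM. Against Vec, 1 rose and 1 fell in CCND2wt, and in CCND2mut against CCND2wt 3 rose and 2 fell.

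Of 13 tested transcription factors known to act on the family, 1 rose and 8 fell in CCND2mut against Vec, with a median of -1.08. Over all tested genes 24.9% were called higher there and 26.9% lower. Foxo3, an activator of Bcl2l11 in starved cells, fell by 2.22 (SE 0.14, adjusted p = 2.09e-05), and Stat5a, which drives Bcl2l1 downstream of cytokine receptors, fell by 2.20 (SE 0.18, adjusted p = 5.66e-05). In CCND2wt against Vec 2 rose and 3 fell, beside 9.71% and 9.05% of all tested genes. Foxo3 stood at -0.91 (SE 0.13, adjusted p = 0.00369) and E2f1 at 1.502 (SE 0.23, adjusted p = 0.00405). Foxo1 went the other way from Foxo3 there (0.74, SE 0.12, adjusted p = 0.00533). In CCND2mut against CCND2wt 3 rose and 8 fell, beside 23.2% and 23.8% of all tested genes. Foxo1 (-1.81, SE 0.12, adjusted p = 2.50e-05) and Foxo3 (-1.31, SE 0.14, adjusted p = 0.000143) both fell in that comparison. Bcl2l11 was not called there (-0.30, interval -1.18 to 0.58), and a link between these factors and Bcl2l11 was not tested. With the CCND2wt libraries summed to 1 sample, Bok, Foxo3 and E2f1 were no longer called in CCND2wt against Vec (adjusted p = 0.189, 0.245 and 0.164 in edgeR). Of 6 tested genes of enzymes that set MCL1 protein stability, 1 rose and 1 fell in CCND2mut against Vec, the latter being the ubiquitin ligase subunit Btrc (-1.53, SE 0.14, adjusted p = 8.60e-05). In CCND2wt against Vec 0 of the 6 were called in edgeR, DESeq2 or limma-voom, with 1 lower at an unadjusted p under 0.05, and in CCND2mut against CCND2wt 1 was called, which fell.

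**Figure D4:**
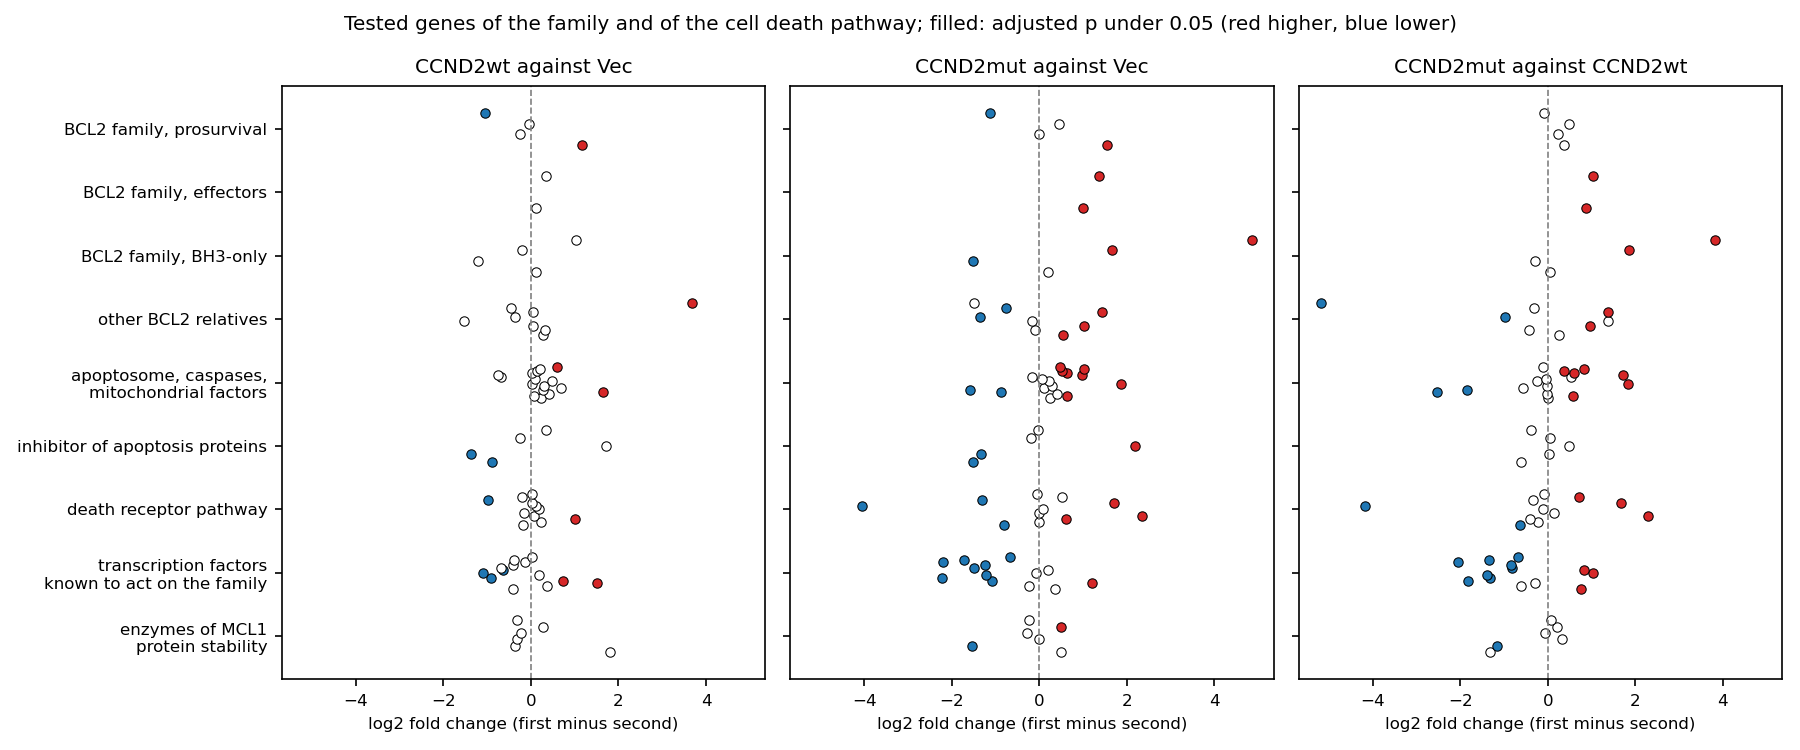
Log2 fold change of each tested gene (points) of the family's 3 roles and of 6 further lists of the cell death pathway, in the 3 comparisons on 1 shared axis. Filled points passed an adjusted p of 0.05 (red higher, blue lower): in CCND2mut against Vec 2 of 2 effectors are higher, and 8 of 13 transcription factors are lower.

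The genes whose levels ran most like those of the members were found by Pearson's correlation of log2(CPM + 1) over the 9 libraries, among 10824 other genes whose average reached 5 CPM. The libraries fall into 3 groups and share their depth and make-up, so that high values arise for any pair of genes with like group means. For Pmaip1 these genes were Arfgef2, Gxylt1 and Atp6ap2 (0.991, 0.990 and 0.988), and for Bid they were Fgfr1op2, Nin and Pla2g12a (0.997, 0.997 and 0.996). For Mcl1 they were Tpst2, E030022I16Rik and Gm1821 (0.972, 0.963 and 0.963), and for Bcl2 they were Ddias, Mdm1 and the replication gene Cdc45 (0.983, 0.980 and 0.980). For Bbc3, whose pattern did not follow the groups, they were Chka, 4932438A13Rik and Slc25a3 (0.953, 0.935 and 0.925). None of these genes was a member of the family.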

How the data were processed

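RNA of 9 libraries of mouse bone marrow cells was analysed, 3 in each group, joined to groups by title, with 0 count columns left over. RNA was isolated with TRIzol and made into libraries with the NEBNext Ultra kit, per the labels' protocols. The authors deposited raw read counts per gene. Per the submitters' processing notes, the tools were CASAVA 1.8, fastp, HISAT2 2.0.5, featureCounts 1.5.0-p3 and DESeq2 1.20.0, with build mm10. Neither the annotation release nor the strand setting is given in the labels, and gene lengths were used as deposited.

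Genes were filtered with filterByExpr, scaled by TMM and fitted over all 9 libraries by edgeR's robust quasi-likelihood method, with 6 residual degrees of freedom. Versions were edgeR 4.0.16, limma 3.58.1 and R 4.3.3. The p-values were adjusted by Benjamini-Hochberg over 15660 genes, with a threshold of 0.05. Intervals of 95% come from the model's SE. The script was tested on simulated data. Alternatives were RLE factors, DESeq2 1.42.0, limma-voom, 2 other filters, other sample sets, removed genes and a fold of 1.5. Members and lists were chosen with earlier results of these data known. The text names all members and up to 3 called genes of each list with the smallest adjusted p, of which 1 is not reported here. Marker genes and overlapping genes named with values were chosen after those were seen. No sequence table was used here.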

Additional observations from a re-analysis of the deposited data

How the results depend on the processing

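Each of the 30 member differences was recomputed under 20 settings. Of the 600 values, 546 kept their direction and their side of the threshold, 13 lost and 15 gained the call, and 26 changed sign, none of them for a called difference. With the CCND2wt libraries summed, the lone sample is assumed to vary like the other groups.

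The members called in CCND2mut against Vec or CCND2wt kept their direction in all 20 settings, and their calls too, except Bak1 against CCND2wt with the CCND2wt libraries summed (adjusted p = 0.057 in edgeR). In CCND2wt against Vec the members called higher were 2 in DESeq2 and with only the 2 groups compared, and 0 against a fold of 1.5 and with the CCND2wt libraries summed. The members called lower were 2 in DESeq2 and with Vec 1 and CCND2mut 1 both left out, and 0 against a fold of 1.5 and with the CCND2wt libraries summed. Leaving out 1 library each gave 0 to 2 in each direction. The cause was not tested.

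Same-numbered libraries shared only a number. Their deviations from the group means correlated at -0.0727 to 0.187 over 6 pairs, and those of other pairs at -0.214 to 0.259. With the replicate block, Mcl1 in CCND2wt against Vec was not called (-0.99, edgeR adjusted p = 0.131), Bcl2l11 was (-1.52, edgeR adjusted p = 0.0139), and 953 genes were higher and 683 lower in place of 1520 and 1418.

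Signs changed for differences near 0. In CCND2wt against Vec, Bcl2l2 stood at 0.00459 without a filter and 0.041 with the replicate block, and Bcl2l1, Bid and Bbc3 at 0.0593, 0.0448 and -0.0918 with Vec 1 and CCND2mut 1 both left out. In CCND2mut against Vec, Bcl2l1 stood at 0.0124 in limma-voom, 0.16 with the block and 0.39 with Vec 1 and CCND2mut 1 both left out. In CCND2mut against CCND2wt, Bbc3 stood at -0.0621 in limma-voom. With 1 library left out, the ranges in CCND2wt against Vec were -0.171 to 0.127 for Bcl2l2, -0.543 to 0.0603 for Bcl2l1, -0.297 to 0.0452 for Bid and -0.0922 to 0.766 for Bbc3. In CCND2mut against Vec they were -0.424 to 0.265 for Bcl2l1 and -0.333 to 0.801 for Bbc3, and in CCND2mut against CCND2wt -0.202 to 0.447 for Bcl2l1, -0.344 to 0.164 for Mcl1 and -0.491 to 0.273 for Bbc3.

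Over all genes, CCND2wt against Vec had 26 higher and 13 lower with the CCND2wt libraries summed, 576 and 451 against a fold of 1.5, and 2390 and 2080 with Vec 1 and CCND2mut 1 both left out. Without CCND2wt 2, 3 or 4 it had 619 and 425, 704 and 490, or 615 and 404, without Vec 4 961 and 1078, and in DESeq2 2105 and 2194. Against a fold of 1.5, CCND2mut had 2113 higher and 2716 lower than Vec (3906 and 4213 otherwise) and 1893 and 2407 against CCND2wt (3633 and 3727 otherwise), and 803 and 1575 against the summed CCND2wt libraries. The same settings, added after the data were seen, were run for 40 differences of pathway genes. Of these 26 kept direction and call throughout and 0 changed sign. At this depth and number of libraries the 95% intervals of uncalled members reach as far as -2.10 (Bcl2l11) and 1.94 (Pmaip1), both in CCND2wt against Vec.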
